A study of Homo sapiens with 24 samples.

Results

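The 42 DNA damage repair genes described here were measured in HCT-116 cells, a human colorectal carcinoma line, after treatment with sodium butyrate (NaB) and with doxycycline, the agent that controls a dominant-negative Tcf4 (DN-Tcf4) in these cells. The members were chosen by gene name from the known repair pathways, with earlier results of these data known. They make up 42 of the 27274 gene names on the array. All 42 were on the array, by 61 probes, and all 42 had a probe that passed the filter on dim signal, among 15136 genes tested. They comprised 9 homologous recombination genes, 8 Fanconi anemia genes, 4 mismatch repair genes, 5 base excision repair genes, 5 nucleotide excision repair genes, 3 end joining genes, 7 genes of damage sensing and signalling, and RAD18.

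Every culture came from a single stably transfected HCT-116 clone that carried the Tet repressor and, under its control, DN-Tcf4, a Tcf4 without the part that binds beta-catenin, so all 4 treatments shared both transgenes and the results speak for that clone. Ctl cells were mock-treated, NaB cells received 5 mM sodium butyrate, Doxy cells received 4 ug/ml doxycycline, and DoxyNaB cells received both agents. By the study's methods doxycycline came first, and the 17.5 hr is the time of the cotreatment with or without butyrate. There were 6 numbered experiments, each with 1 array per treatment and described by the study as biological replicates, which gave 24 single-color Agilent arrays. NaB vs. Ctl asked how the cells responded to butyrate, DoxyNaB vs. Doxy asked the same in the presence of doxycycline, and the interaction is the first of these changes minus the second.

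Cells repair DNA by several routes. Homologous recombination copies the lost sequence at a double-strand break from the sister chromatid and works mainly in S and G2 phase, whereas end joining ligates the broken ends directly at any time. The Fanconi anemia pathway recognizes DNA strands that are crosslinked to each other and marks the stalled replication fork, mismatch repair corrects errors left by the replication machinery, base excision repair removes single damaged or misplaced bases, and nucleotide excision repair cuts out bulky lesions such as those made by ultraviolet light. The kinases ATM and ATR sense the damage and pass the signal through CHEK2 and CHEK1 to the cell cycle. Defects in several of these routes are known in colorectal tumors, and HCT-116 itself is known as a mismatch repair-deficient line.

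On the arrays, 52.7 to 88.1% of probe spots were well above background, and the 75th percentile of the processed signal ranged from 380.2 to 1323 intensity units. The negative control spots were brightest in experiment 3 NaB (161 intensity units) and in experiment 2 DoxyNaB (248.9), and read 48.4 to 115 elsewhere. In experiments 2, 3 and 4 they read 114.6, 161 and 112.1 in NaB, against 76.9, 68.4 and 63.1 in Ctl. In the same experiments DoxyNaB read 248.9, 69.1 and 110.9, against 77.8, 68.7 and 79.6 in Doxy. In experiments 1, 5 and 6 NaB read 64.3, 49.9 and 48.8, against 55.1, 49.5 and 48.4 in Ctl. The part of this brighter background in the changes was not tested. In experiment 1, the Ctl and Doxy arrays differed in slide and scan date from the NaB and DoxyNaB arrays. Slide and butyrate thus cannot be told apart within that experiment. Experiments 2 to 4 shared a scan date and experiments 5 and 6 shared another, and each of experiments 2 to 6 lay on its own slide. A TCF7L2 (Tcf4) probe lay between -4.11 and -0.29 in the other 3 treatments and between 0.54 and 1.92 in DoxyNaB, and AXIN2, a Wnt target, was lower in DoxyNaB than in NaB (log2 change -2.53, adjusted p = 2.64e-11). Doxycycline without butyrate left that TCF7L2 probe at -3.59 to -1.50, against -4.11 to -1.57 in Ctl, so no induction was seen with it in Doxy cells. AXIN2 was nevertheless lower in Doxy than in Ctl (log2 change -0.58, adjusted p = 0.0029). Since that TCF7L2 probe was high in DoxyNaB and not in Doxy, butyrate and the level of DN-Tcf4 changed together in DoxyNaB vs. Doxy, and their parts in it cannot be told apart. A TCF7L2 probe to another transcript was lower in DoxyNaB than in NaB (log2 change -1.25, adjusted p = 0.00568). Levels are given throughout as log2 of the probe signal relative to the 75th percentile of its array, for the probe of highest mean level of each gene. A gene was called changed by butyrate when its adjusted p from limma was under 0.01 and its change exceeded 2-fold.

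An upstream window is shown first for each of 4 members. E2F and CHR words are known as elements of promoters that follow the cell cycle. The windows are the 250 bases before the annotated start in the RefSeq annotation of GRCh38.p14, read 5′ to 3′ on the strand of the gene. Capitals mark E2F words (TTTCCCGC, TTTCGCGC, TTTGCCGC or TTTGGCGC), the CHR word TTTGAA and the CCAAT box, on either strand. UNG and CHEK1 had the largest falls of their classes, FANCA was the other called member with an E2F word, and ERCC4 rose. UNG is at chr12:109097922-109098171 (+), CHEK1 at chr11:125626106-125626355 (+), FANCA at chr16:89816648-89816897 (-) and ERCC4 at chr16:13919904-13920153 (+).
UNG: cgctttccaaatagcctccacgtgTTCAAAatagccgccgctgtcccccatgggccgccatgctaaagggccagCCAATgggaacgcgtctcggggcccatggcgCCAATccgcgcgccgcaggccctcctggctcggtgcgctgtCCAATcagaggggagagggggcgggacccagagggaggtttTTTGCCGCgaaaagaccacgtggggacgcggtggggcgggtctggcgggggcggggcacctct
CHEK1: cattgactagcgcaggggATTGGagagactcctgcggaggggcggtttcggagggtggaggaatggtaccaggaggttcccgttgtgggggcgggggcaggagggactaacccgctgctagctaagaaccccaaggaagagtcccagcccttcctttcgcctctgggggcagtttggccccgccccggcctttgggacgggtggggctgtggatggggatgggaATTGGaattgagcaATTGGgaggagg
FANCA: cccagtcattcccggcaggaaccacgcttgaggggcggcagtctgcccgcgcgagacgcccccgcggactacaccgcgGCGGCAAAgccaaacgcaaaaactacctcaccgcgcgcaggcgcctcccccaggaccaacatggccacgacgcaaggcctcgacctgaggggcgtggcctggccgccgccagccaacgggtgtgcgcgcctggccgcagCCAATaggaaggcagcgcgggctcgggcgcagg
ERCC4: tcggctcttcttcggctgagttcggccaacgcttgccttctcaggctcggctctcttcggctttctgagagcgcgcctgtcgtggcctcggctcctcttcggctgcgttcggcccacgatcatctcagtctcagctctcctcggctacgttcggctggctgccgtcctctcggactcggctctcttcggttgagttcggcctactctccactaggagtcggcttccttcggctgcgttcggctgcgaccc

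Of the 42 members, 38 were matched in the promoter table, with 53 windows among them, and RAD54B, FANCI, XRCC5 and NBN were not. An E2F word was found in 5 of the 53 member windows (9.43%) and in 2.79% of all 35116 windows of this length. By gene, those were FANCA, FANCC, PMS2 and UNG, 4 of the 38 matched genes (10.5%) against 3.4% of all genes. The 2 PMS2 windows overlap and hold the same word. FANCA and UNG were called lower with butyrate. A CCAAT box was found in 25 of 53 member windows (47.2%) against 32.0% of all windows. By gene, it was found in 20 of the 38 matched genes (52.6%) against 37.0% of all genes. The CHR word was found in 6 of 53 member windows (11.3%) against 13.3% of all windows. Among windows of members called lower with butyrate, 10.5% held an E2F word, 52.6% a CCAAT box and 5.26% the CHR word. Among those of members not called, the shares were 9.38%, 43.8% and 15.6%. By gene, the shares were 15.4%, 53.8% and 7.69% of 13 matched genes called lower, and 8.7%, 52.2% and 21.7% of 23 not called. The part of these words in the falls was not tested. UNG has 2 annotated windows. In the one shown, the E2F word began 63 bases before the start and 3 CCAAT boxes lay farther upstream, and the other held none of the words. CHEK1 has 3 windows, with 3 CCAAT boxes in the one shown and 1 in each of the others. FANCA and ERCC4 have 1 window each, and that of ERCC4 held none of the words.

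Butyrate lowered 15 of the 42 repair genes and raised 2 of them by more than 2-fold (NaB vs. Ctl, limma, adjusted p under 0.01). Over all 15136 genes tested, 11.5% were called lower and 21% were called higher in the same comparison. The median log2 change was -0.71 over the 42 members and 0.17 over all genes tested. Without the fold limit, 29 members passed adjusted p downwards and 6 upwards, where 29% of all genes passed downwards and 40.6% upwards. The 6 include XRCC3, whose probes moved in opposite directions. The falls were most frequent among Fanconi anemia genes (5 of 8 called lower), homologous recombination genes (4 of 9) and damage signalling genes (3 of 7), and none of the 5 nucleotide excision repair genes was called lower. With normexp background correction CHEK2, NBN, XRCC2 and XRCC4 were not called lower, of which CHEK2 and NBN are damage signalling genes. Fewer cells of a type and less RNA per cell cannot be told apart in these bulk samples.

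**Figure D1:**
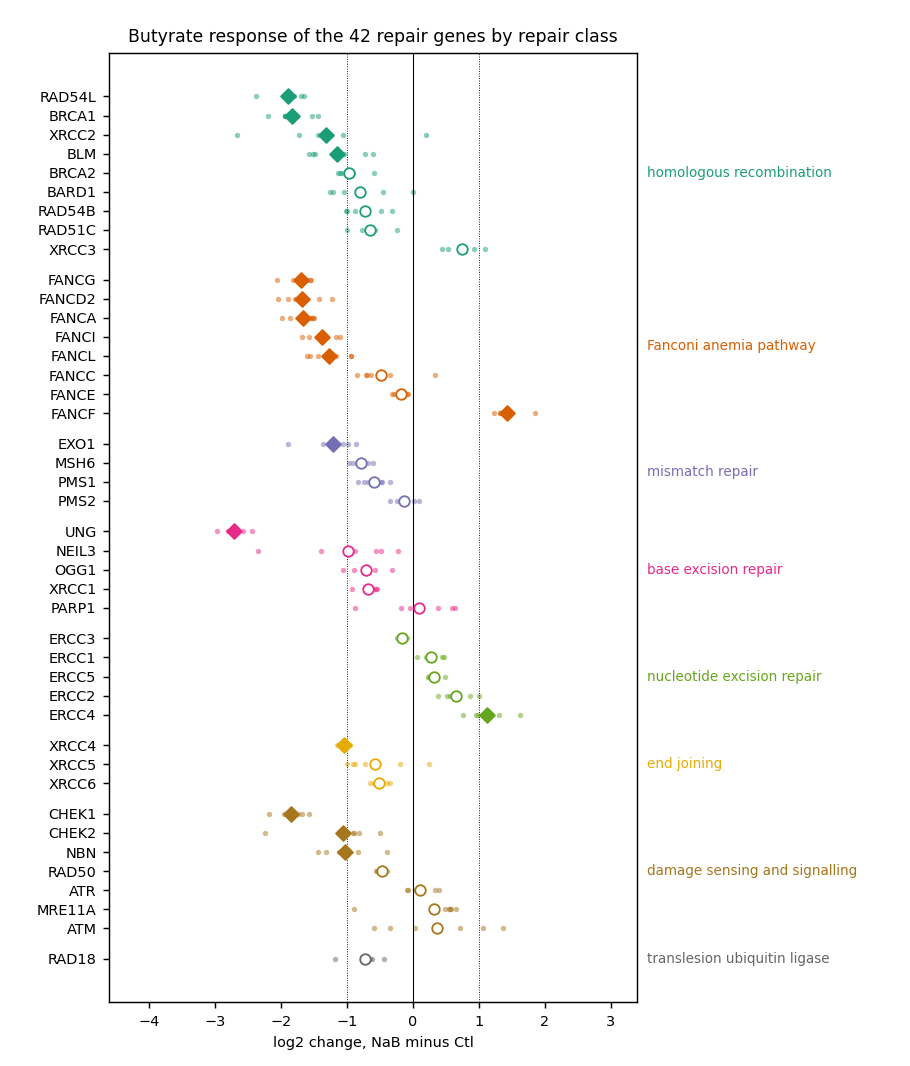
Log2 change in NaB vs. Ctl of each of the 42 members, grouped by repair class. Small points are the 6 experiments, large symbols the fitted change, with filled diamonds for members past 2-fold and adjusted p under 0.01 and open circles for the rest, and dotted lines mark a change of 2-fold. UNG lies lowest at -2.70 and FANCF highest at 1.43, and 4 of the 5 nucleotide excision repair genes lie above 0.

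The largest fall of any member was that of UNG, the uracil-DNA glycosylase that removes uracil from newly replicated DNA (probe at chr12:108033121-108033180, plus strand, NCBI36). Its level was 3.46 at lowest, 3.59 at the median and 3.72 at highest in the 6 Ctl arrays, and 0.69, 0.84 and 1.28 in the 6 NaB arrays. The treatments did not overlap, and the lowest Ctl array was far above the highest NaB array. UNG thus fell to 0.154 of its Ctl level (log2 change -2.70 ± 0.18, SD, n = 6; adjusted p = 1.4e-14). In the other base excision repair genes the changes were smaller. NEIL3, a glycosylase for oxidized bases that is made in proliferating cells, gave -0.98 ± 0.78 (adjusted p = 0.00327) and was well above background on 4 of 6 NaB arrays. It did not pass without experiment 1, 5 or 6 (adjusted p = 0.0112 to 0.0191), with normexp background correction (0.0276) or without the block (0.0908), and it gave -0.42 in experiments 2 to 4. The scaffold protein XRCC1 gave -0.67 ± 0.15 (adjusted p = 2.19e-06). PARP1, which binds strand breaks, ranged from -0.87 to 0.65 over the experiments and did not pass (log2 change 0.09, adjusted p = 0.65). The 2 probes of OGG1, the 8-oxoguanine glycosylase, did not move alike. Its brighter probe, designed to transcript NM_002542, fell in 5 of 5 experiments, with the outlier Ctl spot of experiment 5 left out (log2 change -0.71, adjusted p = 5.71e-06), and its NM_016828 probe gave 0.00 (adjusted p = 0.973).

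Of the 9 homologous recombination genes, 8 were lower past adjusted p, as were 29% of all genes, and the class median was -0.97. RAD54L, a DNA translocase that drives strand exchange, ranged from 1.54 to 1.73 around a median of 1.63 in Ctl, and from -0.67 to 0.03 around a median of -0.23 in NaB. Every NaB array was thus below every Ctl array. The change was -1.89 ± 0.26 (SD, n = 6; adjusted p = 1.44e-11). BRCA1, the ubiquitin ligase that promotes resection of broken ends, had Ctl levels of 1.16 at lowest, 1.30 at the median and 1.52 at highest. Its NaB levels were -0.70, -0.53 and -0.17, again with no overlap, and it fell to 0.281 of the Ctl level (log2 change -1.83 ± 0.29, adjusted p = 6.4e-12). The RecQ helicase BLM, which dissolves recombination intermediates, lay at 1.62, 1.68 and 1.86 in Ctl and at 0.18, 0.47 and 1.06 in NaB. Its arrays were separated as well, but the experiments were spread from -1.57 to -0.60 around a change of -1.15 (adjusted p = 2.11e-05).

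XRCC2, a paralog of the strand exchange recombinase, was more variable than any of these. It lay between -1.94 and 0.24 in Ctl, with a median of -1.23, and between -2.96 and -1.74 in NaB, with a median of -2.22. The treatments overlapped, and XRCC2 was lower in 5 of 6 experiments (log2 change -1.32 ± 0.94, adjusted p = 0.000952). Its call was lost with normexp background correction, by the methods' paired t-test, and when only experiments 2 to 4 were fitted. BRCA2, which loads the recombinase onto resected DNA, gave -0.97 ± 0.20, just inside 2-fold, with an adjusted p of 1.54e-06. The BRCA2 probe was dim, and rose well above background on 5 of 6 arrays in Ctl and 3 of 6 in NaB. BARD1, the partner of BRCA1, gave -0.79 (adjusted p = 0.00028), RAD54B -0.73 (2.37e-06) and RAD51C -0.65 (9.82e-06). With normexp background correction BRCA2 (adjusted p = 0.0483) and BARD1 (0.0195) did not pass. XRCC3 was the only member of the class whose brightest probe rose (log2 change 0.74 ± 0.25, adjusted p = 5.74e-05, higher in 6 of 6 experiments). That probe was designed to the cDNA CR610241, at chr14:103240487-103240546 on the minus strand. The other XRCC3 probe, designed to the RefSeq transcript NM_001100119, moved the opposite way in 6 of 6 experiments (log2 change -0.73, adjusted p = 1.12e-07), so no direction can be given for XRCC3.

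**Figure D2:**
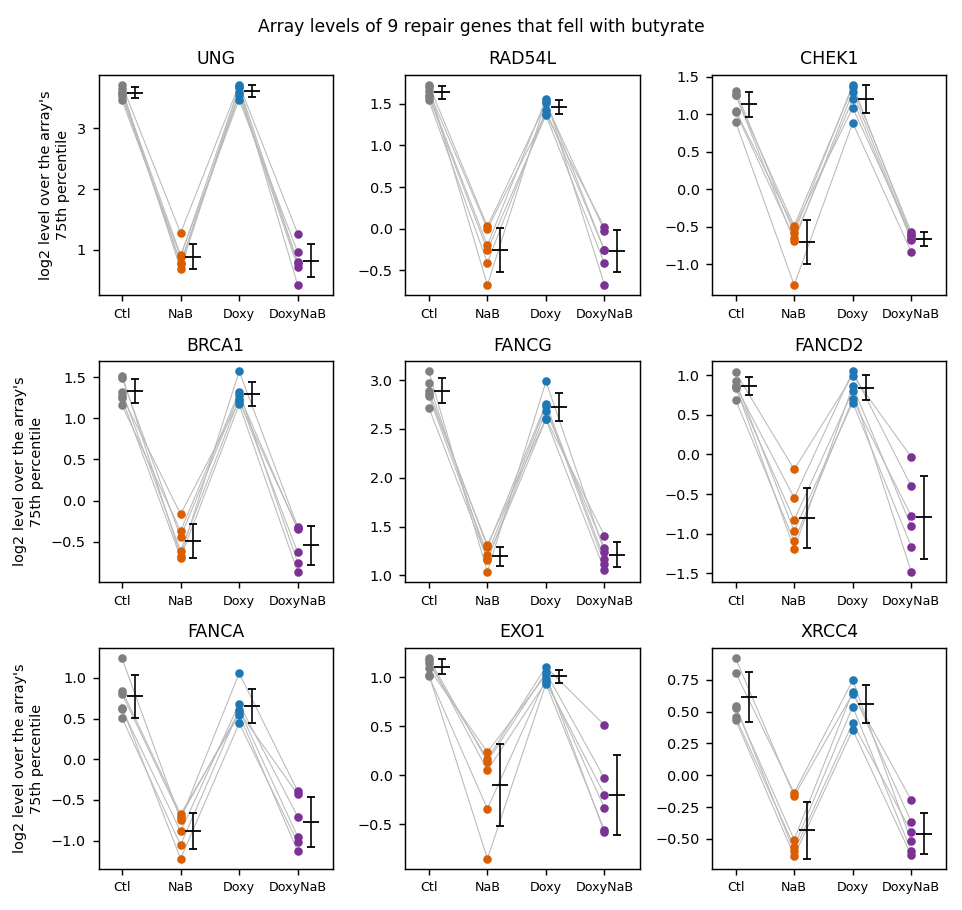
Levels of 9 members that fell with butyrate on the 24 arrays, as log2 over the 75th percentile of the array, with each panel on its own vertical scale. Points are arrays, gray lines join the arrays of an experiment, and black bars are the mean and SD of 6 arrays. UNG ran from 3.46 to 3.72 in Ctl and from 0.69 to 1.28 in NaB, and in each panel the NaB arrays lie below the Ctl arrays.

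The Fanconi anemia genes had the lowest class median, -1.32. FANCG and FANCA belong to the core complex that is recruited to crosslinked DNA. FANCG levels were 2.72 at lowest, 2.87 at the median and 3.09 at highest in Ctl, and 1.04, 1.19 and 1.31 in NaB. They did not overlap, and FANCG fell by 1.69 ± 0.20 on the log2 scale (log2 change -1.69, adjusted p = 6.05e-13). In FANCA, the Ctl arrays lay at 0.51, 0.72 and 1.24 and the NaB arrays at -1.22, -0.82 and -0.67. All 3 of its probes were called lower, with log2 changes of -1.66, -1.34 and -1.32. FANCL is the ubiquitin ligase subunit of the complex. It lay at 0.91, 1.14 and 1.30 in Ctl and at -0.50, -0.20 and 0.33 in NaB, with no overlap. Its change was -1.27 ± 0.30 (adjusted p = 2.93e-08), and its second probe was also called (-1.04).

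FANCD2 and FANCI form the clamp that the core complex marks with ubiquitin. FANCD2 levels were 0.69, 0.86 and 1.03 in Ctl and -1.19, -0.90 and -0.19 in NaB, so that the treatments were separated. FANCD2 fell by 1.67 ± 0.31 on the log2 scale (log2 change -1.67, adjusted p = 4.08e-09), and a second, dimmer probe gave -2.27. FANCI levels were 1.96, 2.20 and 2.33 in Ctl and 0.60, 0.79 and 0.91 in NaB, again without overlap, and the change was -1.37 ± 0.23 (adjusted p = 3.13e-10). Both clamp genes and 3 genes of the core complex thus moved in the same direction. FANCC, another core member, gave -0.48 (adjusted p = 0.0049) and was lower in 5 of 6 experiments. It did not pass in 12 of the 19 limma settings tried, among them those without experiment 1, 2, 3 or 5 (adjusted p = 0.0158 to 0.0281), and it gave -0.18 in experiments 5 and 6. FANCE, which bridges the core complex and FANCD2, gave -0.18 and did not pass (adjusted p = 0.0144).

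In contrast, FANCF, the adaptor that holds the core complex together, was the member that rose most (probe at chr11:22601309-22601368, minus strand, NCBI36). FANCF levels were -2.01 at lowest, -1.50 at the median and -1.44 at highest in Ctl, and -0.29, -0.14 and 0.04 in NaB. Each NaB array exceeded each Ctl array. FANCF rose to 2.69 times the Ctl level (log2 change 1.43 ± 0.23, SD, n = 6; adjusted p = 2.27e-12), and the second FANCF probe rose by 1.16 on the same scale. With normexp background correction the FANCF change was 0.96 and with median scaling 0.68, both past adjusted p and under 2-fold.

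In mismatch repair, EXO1, the exonuclease that removes the strand carrying the error, was the single gene past 2-fold. It lay at 1.02, 1.12 and 1.20 in Ctl and at -0.85, 0.10 and 0.24 in NaB, with no overlap. The change was -1.21 ± 0.37 (SD, n = 6; adjusted p = 2.88e-07). MSH6, which recognizes mismatched bases, gave -0.79 ± 0.14 (adjusted p = 1.64e-08) and was lower in 6 of 6 experiments. PMS1, a MutL homolog, gave -0.59 ± 0.19 (adjusted p = 8.13e-06), whereas its second probe gave -0.31 and did not pass (adjusted p = 0.0159). PMS2, the MutL homolog that nicks the strand, was measured by 4 probes. None of them passed, and their changes ran from -0.16 to 0.22.

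The 3 end joining genes were all lower past adjusted p, XRCC5 less firmly than the others. XRCC4, the scaffold of the ligase that seals the break, was the tightest of the called members. It ranged from 0.44 to 0.92 in Ctl, with a median of 0.54, and from -0.63 to -0.14 in NaB, with a median of -0.53. The arrays did not overlap, and its change of -1.05 ± 0.07 (SD, n = 6; adjusted p = 1.06e-10) lay close to the 2-fold limit and was under it with normexp background correction. XRCC5 and XRCC6 encode the Ku heterodimer, which holds the broken ends. XRCC6 gave -0.51 ± 0.12 (adjusted p = 9.07e-07) and XRCC5 gave -0.57 ± 0.49 (adjusted p = 0.00392). XRCC5 did not pass in 10 of the 19 limma settings tried, among them normexp background correction (adjusted p = 0.238), quantile normalization (0.0882), the fit without the block (0.0528) and the fits without experiment 3, 4, 5 or 6 (0.0211 to 0.0265).

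Among the sensing and signalling genes, the checkpoint kinase CHEK1, which acts below ATR at stalled forks, changed most. CHEK1 levels were 0.90, 1.15 and 1.32 in Ctl and -1.28, -0.62 and -0.49 in NaB. They did not overlap, and the change was -1.84 ± 0.22 (SD, n = 6; adjusted p = 1.68e-13). CHEK2, the kinase below ATM, lay at -0.43, -0.09 and 0.14 in Ctl and at -2.36, -0.98 and -0.77 in NaB. Its arrays were separated, but the lowest NaB array was that of experiment 1, and the other probe of CHEK2 gave -0.72, under the fold limit. The CHEK2 change was -1.06 ± 0.61 (adjusted p = 1.8e-05) and the call was lost without experiment 1. It was also lost with normexp background correction, and when only experiments 2 to 4 or only experiments 5 and 6 were fitted.

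The MRE11A-RAD50-NBN complex tethers broken ends and activates ATM, and its genes did not move alike. NBN lay at -1.37, -0.06 and 0.24 in Ctl and at -1.76, -1.19 and -1.01 in NaB. The treatments overlapped through the Ctl array of experiment 1, and the change was -1.03 ± 0.38 (adjusted p = 3.5e-06), lower in 6 of 6 experiments. The call for NBN was lost without experiment 3 and without experiment 4, where the change was just inside 2-fold. It was also lost with normexp background correction and when only experiments 5 and 6 were fitted. RAD50 gave -0.47 ± 0.07 (adjusted p = 3.75e-07), and MRE11A gave 0.33 ± 0.60 (adjusted p = 0.182). The kinases ATM (log2 change 0.37, adjusted p = 0.218) and ATR (0.11, adjusted p = 0.324) did not pass. RAD18, the ubiquitin ligase that marks PCNA for translesion synthesis, lay at -1.92, -1.63 and -1.48 in Ctl and at -3.11, -2.23 and -2.09 in NaB. The treatments did not overlap, and its change of -0.72 ± 0.25 (adjusted p = 1.15e-05) was under the fold limit.

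The nucleotide excision repair genes had a class median of 0.32, where the median of all genes was 0.17, and 4 of the 5 were higher past adjusted p, as were 40.6% of all genes. ERCC4 and ERCC1 form the nuclease that cuts upstream of the lesion. ERCC4 levels were -4.72 at lowest, -3.40 at the median and -2.69 at highest in Ctl, and -3.09, -2.35 and -1.92 in NaB. The treatments overlapped, since the experiments differed among themselves by more than the change, but ERCC4 was higher in 6 of 6 experiments (log2 change 1.13 ± 0.30, adjusted p = 3.59e-07). The call for ERCC4 was lost with normexp background correction (0.31) and with quantile normalization (0.16), and its second probe gave 0.47 (adjusted p = 0.0408). Its probe was dim, and in Ctl only 5 arrays met the criterion of the dim-signal filter, whereas all 6 did in NaB, Doxy and DoxyNaB. ERCC4 therefore entered the test through treatments other than Ctl. It dropped out when that criterion was asked of all 24 arrays. ERCC2, a helicase of the repair and transcription factor TFIIH, lay at -0.93, -0.87 and -0.66 in Ctl and at -0.48, -0.19 and 0.21 in NaB. It did not overlap between the treatments and rose by 0.66 ± 0.23 (adjusted p = 9.52e-08). ERCC5, the nuclease that cuts downstream of the lesion, rose by 0.32 ± 0.10 (adjusted p = 0.00017) and ERCC1 by 0.28 ± 0.16 (adjusted p = 0.00185). ERCC5 did not pass with normexp background correction (adjusted p = 0.0197), and over the 19 limma settings tried, the reported one included, ERCC5 did not pass in 5 and ERCC1 in 6. ERCC3, the other TFIIH helicase, gave -0.16 ± 0.05 and did not pass (adjusted p = 0.0116).

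**Figure D3:**
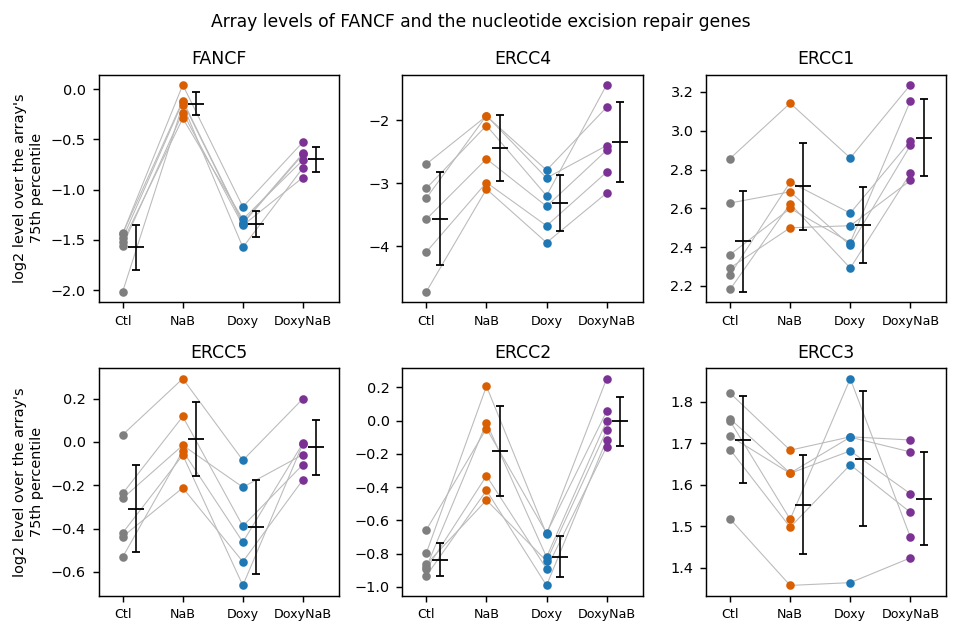
Levels of FANCF and of the 5 nucleotide excision repair genes on the 24 arrays, as log2 over the 75th percentile of the array, with each panel on its own vertical scale. Points are arrays, gray lines join the arrays of an experiment, and black bars are the mean and SD of 6 arrays. FANCF reached -0.29 to 0.04 in NaB but only -0.88 to -0.53 in DoxyNaB, whereas ERCC4 lay at a median of -2.35 in NaB and -2.44 in DoxyNaB.

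The size of these changes rests on how arrays are put on a common scale. With scaling to the median after a floor in place of the 75th percentile, the median change of all genes moved from 0.17 to -0.58. With that scaling 29 members were called lower and 0 higher, where 32.6% of all genes were called lower and 8.94% higher. With the 75th percentile those shares of all genes were 11.5% and 21%. Genes called lower made up 35.3% of all calls with the 75th percentile, 46.2% with normexp background correction, 50.2% with quantile normalization and 78.5% with median scaling. Members below the median of all genes numbered 34 with the 75th percentile, 33 with normexp and 30 with quantile normalization. Median scaling shifts the genes of an array alike, apart from those at the floor, so its count of 34 is no separate evidence. The nucleotide excision repair median was above the median of all genes with the 75th percentile, normexp and quantile normalization. With median scaling it was below 0 (-0.43 against -0.58), and ERCC1, ERCC2, ERCC5 and XRCC3 then had negative values.

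**Figure D4:**
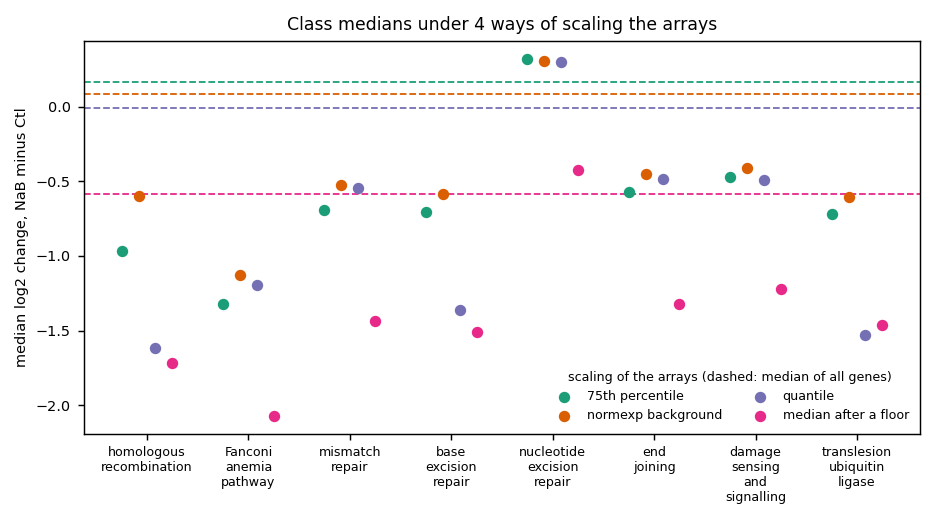
Median log2 change in NaB vs. Ctl of each repair class under 4 ways of scaling the arrays, shown by color, with the median of all genes under the same scaling as a dashed line. The nucleotide excision repair point lies above its dashed line under each scaling, and the points of the other 7 classes lie below theirs.

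Calls in NaB vs. Ctl were similar in number within the experiments of a shared scan date. Of the 15 members called lower, 12 were also called when only experiments 2 to 4 were fitted (13 called in all) and 12 when only experiments 5 and 6 were fitted (15 called in all). The sets differed, with CHEK2, EXO1 and XRCC2 lost in experiments 2 to 4 and BLM, CHEK2 and NBN lost in experiments 5 and 6. With the slide as a block, 14 of the 15 were called, CHEK2 being the exception, and BRCA2 was added. In experiment 1, Ctl and NaB lay on different slides, so this fit took no direct NaB vs. Ctl difference from it. The fit without experiment 1 lost and gained the same genes, so the slide block is no separate check. Without both arrays whose negative controls were brightest, 14 of the 15 were called, and NBN was not.

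In the presence of doxycycline, 13 members were lower by more than 2-fold with butyrate and 0 were higher (DoxyNaB vs. Doxy). Among all genes, 12.5% were called lower and 18.7% higher. Past adjusted p without the fold limit, 29 members were lower and 6 higher by limma, where 30.3% of all genes were lower and 38.1% higher. With an unadjusted p under 0.05 and the fold limit, 0 were higher. The median log2 change was -0.70 for the members and 0.11 for all genes. UNG again changed most. It lay at 3.48 at lowest, 3.63 at the median and 3.72 at highest in Doxy, and at 0.42, 0.79 and 1.27 in DoxyNaB, with no overlap, which gave -2.79 ± 0.29 (SD, n = 6; adjusted p = 8.48e-15). CHEK1 fell by 1.87 ± 0.13 (log2 change -1.87, adjusted p = 1.3e-13), from 0.89, 1.25 and 1.39 in Doxy to -0.84, -0.65 and -0.58 in DoxyNaB.

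All 13 had also been called in NaB vs. Ctl. BRCA1 gave -1.85, RAD54L -1.73, FANCD2 -1.63, FANCG -1.51, XRCC2 -1.50, FANCA -1.43, FANCL -1.39, FANCI -1.35, EXO1 -1.21, BLM -1.06 and XRCC4 -1.02. For each of these genes the interaction test did not pass. CHEK2 (-1.00) and NBN (-0.98) stood just inside 2-fold here and just outside it in NaB vs. Ctl. NEIL3 gave -0.71 and did not pass with doxycycline (adjusted p = 0.0237), and FANCE gave -0.30 and did pass (adjusted p = 0.000332). ERCC4 gave 0.97 ± 0.42 (adjusted p = 2.53e-06), ERCC2 0.81 ± 0.08, ERCC1 0.45 ± 0.17 and ERCC5 0.37 ± 0.17, each higher in 6 of 6 experiments.

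**Figure D5:**
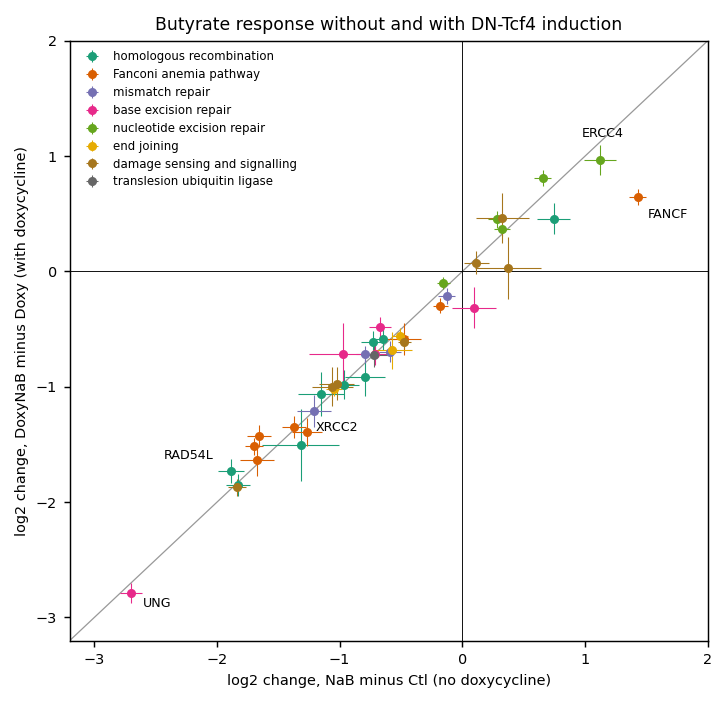
Log2 change of each of the 42 members with butyrate, without doxycycline (NaB vs. Ctl, horizontal) and with it (DoxyNaB vs. Doxy, vertical), with limma standard errors as bars and the line of equal change in gray. FANCF lies below the line, at 1.43 without and 0.65 with doxycycline, and UNG lies at -2.70 and -2.79.

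The interaction tested the difference between the responses of each gene. It passed adjusted p under 0.01 for 1 member, FANCF, against 1.36% of all genes, and FANCF was also the single member with an unadjusted p under 0.05. FANCF lay at -1.57 at lowest, -1.33 at the median and -1.17 at highest in Doxy, and at -0.88, -0.68 and -0.53 in DoxyNaB. Its change with butyrate was therefore 0.65 ± 0.11 with doxycycline and 1.43 ± 0.23 without, with arrays separated in both comparisons. The difference was 0.78 ± 0.17 (SD, n = 6; adjusted p = 0.000122) and had the same sign in 6 of 6 experiments. The second FANCF probe gave a difference of 0.74 (adjusted p = 0.00393). Between the butyrate-treated cells, FANCF was lower in DoxyNaB than in NaB in 6 of 6 experiments (log2 change -0.55 ± 0.08, adjusted p = 4.79e-05). It was the single member past adjusted p in DoxyNaB vs. NaB, where 2.72% of all genes passed. The FANCF interaction passed without each experiment in turn, and it did not pass with normexp background correction (0.43, adjusted p = 0.448), quantile normalization (0.85, adjusted p = 0.012) or median scaling (0.59, adjusted p = 0.983). For each of the other members the interaction did not pass, which does not show that their responses were alike. For UNG the difference was 0.09 with an SE of 0.12, and for XRCC2 it was 0.19 with an SE of 0.44.

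Doxycycline without butyrate changed 0 of the 42 members past adjusted p (Doxy vs. Ctl, limma), against 0.555% of all genes. Their log2 changes lay between -0.18 and 0.25. At an unadjusted p under 0.05, FANCF and FANCG passed, with changes of 0.23 and -0.16. By the methods' paired t-test at an unadjusted p under 0.01, 5 members passed (FANCF, FANCG, RAD18, RAD54L and XRCC6), and 0 did after Benjamini-Hochberg adjustment. DoxyNaB vs. NaB shares its DoxyNaB arrays with DoxyNaB vs. Doxy and its NaB arrays with NaB vs. Ctl.

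The other repair genes on the array are given beside the members. Members and lists were chosen with earlier results of these data known, so differences between them are no independent evidence. A further 101 genes were listed by pathway and 99 were tested. Butyrate lowered 21 of the 99 and raised 6 past 2-fold, with a median of -0.28. Over all genes tested, 11.5% were called lower and 21% higher, with a median of 0.17. By class, 4 of 15 further homologous recombination genes, 6 of 17 base excision repair genes, 6 of 18 damage signalling genes, 1 of 9 mismatch repair genes and 0 of 5 end joining genes were called lower. Of the 8 further Fanconi anemia genes, 1 was called lower and 1 higher, with a median of -0.12, against 5 lower and a median of -1.32 in the 8 members of that class. The kinase WEE1, which holds cells before mitosis, gave -2.87, and the phosphatase CDC25A, which opposes it, gave -2.62. RAD51AP1, an accessory factor of strand exchange, gave -2.23, and MUTYH, the glycosylase that removes adenine opposite an oxidized guanine, gave -1.93. SLX4, the scaffold of structure-specific nucleases in the Fanconi anemia pathway, rose by 2.01. The polymerases POLK (1.15) and POLI (1.12) rose. Of the 10 translesion synthesis genes, 0 were called lower and 3 higher. Counts of 0 or 1 called lower in classes this small are near the 11.5% of all genes. Among 17 further nucleotide excision repair genes 3 were called lower and 1 higher, with RAD23B at -1.13 and CETN2 at 1.12, and a median of -0.09.

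Genes of the cell cycle moved with the members. Of 20 genes of S phase, 14 were called lower in NaB vs. Ctl, with a median of -1.32, and TYMS (-3.36) and CDT1 (-1.98) changed most. Of 16 genes of G2 and mitosis, 14 were called lower, with a median of -1.82, led by CCNA2 (-2.62) and AURKB (-2.32). Their part in the falls of the repair genes was not tested. Of 10 epithelial markers 8 passed the filter on dim signal, and 2 of them were called lower and 0 higher with butyrate. Past adjusted p without the fold limit, 3 of the 8 were lower and 3 higher, with a median of 0.21. KRT8 and KRT18 were well above background on 6 of 6 arrays of Ctl and NaB, while the mean level of EPCAM went from 4.01 to 2.45 and that of CLDN7 from 3.46 to 2.37. Of 7 fibroblast markers 2 passed the filter on dim signal, and of 7 leukocyte markers 3 did. All 5 were higher past adjusted p with butyrate, and 2 of each list were called higher past 2-fold. THY1 was at background level on every Ctl array and well above it on 6 of 6 NaB arrays, so that it passed the filter through the butyrate-treated cells, and COL3A1 was not well above background on any array of Ctl or NaB. The part of these markers in the results was not tested.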

How the data were processed

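Total RNA from 24 cultures (6 experiments of 4 treatments) was labelled by the submitters and hybridized to single-color Agilent whole genome arrays. The deposited files hold one array each, with the processed, mean and background intensity of every spot, made by the authors with Agilent Feature Extraction (9.5.3.1 per the file headers), with probe positions in NCBI36. Processed signals were background-subtracted by that program and not scaled between arrays.

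Outlier spots were left out, log2 intensities were averaged per probe, and the 75th percentile of each array was subtracted. Probes well above background on every array of a treatment were tested (18983 of 34127). Each gene was read from the probe with its highest mean signal. limma (3.58.1, R 4.3.3) was fitted to all 24 arrays with the experiment as a block, and p-values were adjusted by Benjamini-Hochberg over all probes tested. The fit was tested on simulated data. Errors are SDs over experiments. The labels number the experiments, and the study's methods paired them. Arrays of an experiment deviated together (r = 0.218 to 0.851) except NaB and DoxyNaB in experiment 3 (r = -0.217). Each of experiments 2 to 6 lay on its own slide, so experiment and slide cannot be told apart in these r values. Alternatives were normexp background correction (offset 50), quantile normalization, median scaling after a floor of 5, other filters, blocks, thresholds and tests, and arrays or experiments left out. The 42 members and the gene lists were chosen with earlier results of these data known. Full values are given for members called in NaB vs. Ctl, for those called in the other comparisons, and for the largest change of each class; of other lists only the largest changes are named. Promoter sequences are from RefSeq on GRCh38.p14. No genome of the probes' build was used here, so exons are not given for probes. The number of arrays limits the precision.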

Additional observations from a re-analysis of the deposited data

Results flagged for a closer look

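The response of FANCF to butyrate differed between cells without and with doxycycline, by 0.78 on the log2 scale in the test of the difference itself. The difference did not pass with normexp background correction, quantile normalization or median scaling, nor in experiments 2 to 4 or 5 and 6 alone.

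Of 168 sets of arrays (42 members in 4 treatments, 6 arrays each but 5 for OGG1 in Ctl), 17 held an array far from the other arrays of its treatment by Dixon's test, where chance gives about 1 in 20, and 13 of these arrays were from experiment 1. In experiment 1, the low arrays were BRCA2 (-4.54), FANCF (-2.01), NBN (-1.37) and RAD54B (0.55) in Ctl, CHEK1 (-1.28), CHEK2 (-2.36) and XRCC5 (1.58) in NaB, and CHEK2 (-0.40) and RAD54B (0.43) in Doxy. The high arrays of experiment 1 were XRCC1 in Ctl (2.13) and Doxy (2.19), ERCC1 in NaB (3.14) and FANCC in Doxy (-0.46). In experiment 2, the DoxyNaB array was lowest for RAD50 (-0.63) and XRCC5 (1.89). BLM was high in the Ctl array of experiment 4 (1.86) and ATR low in the Doxy array of experiment 6 (0.27). Without experiment 1, 15 members were called lower in NaB vs. Ctl, with BRCA2 added and CHEK2 lost.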

How the results depend on the processing

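For the 15 members lower and 2 higher in NaB vs. Ctl, scaling to the median after a floor gave 29 and 0. The count lower was 11 with normexp background correction, where CHEK2, NBN, XRCC2 and XRCC4 were lost, and 20 with quantile normalization. Of all genes, 7.82% and 14.9% were called lower in those settings. A fold of 1.5 gave 25 and 4, and a fold of 3 gave 7 and 0. Of all genes, median scaling called 32.6% lower and 8.94% higher. A fold of 1.5 called 20.7% and 31.9% of all genes, and a fold of 3 called 4.51% and 10.7%. The count higher in NaB vs. Ctl was 0 with normexp background correction and 1 with quantile normalization, where 9.10% and 14.8% of all genes were called higher. It was also 1 with only probes well above background on every array, and with the mean over the tested probes of a gene. For the 13 lower in DoxyNaB vs. Doxy, normexp gave 11, quantile normalization 20, median scaling 29, a fold of 1.5 gave 24 and a fold of 3 gave 5. The 0 higher in DoxyNaB vs. Doxy became 3 with a fold of 1.5, where 29.4% of all genes were higher. It became 1, ERCC4, with only experiments 2 to 4, where 17.3% of all genes were higher. The 0 past p in Doxy vs. Ctl became 5 by the methods' paired t-test at an unadjusted p. FANCF, the 1 member in DoxyNaB vs. NaB and in the interaction, gave 0 in both with normexp, median scaling, the methods' paired t-test after adjustment, experiments 2 to 4 and experiments 5 and 6, and 0 in the interaction with quantile normalization. Leaving out each experiment in turn gave 15 to 16 lower and 2 higher in NaB vs. Ctl, 11 to 16 lower and 0 to 1 higher in DoxyNaB vs. Doxy, 0 in Doxy vs. Ctl, and 1 in DoxyNaB vs. NaB and in the interaction. Without the replicate block the counts were 15, 2, 13, 0, 0, 1 and 1 in the same order, so the pairing changed none of them; past adjusted p alone, FANCC, NEIL3, ERCC1, ERCC5 and XRCC5 in NaB vs. Ctl and XRCC3, FANCC, FANCE, XRCC1, ERCC4 and XRCC5 in DoxyNaB vs. Doxy no longer passed without it. The cause of these shifts was not tested.

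Reversed signs with median scaling in NaB vs. Ctl were XRCC3 -0.0055, ERCC1 -0.47, ERCC2 -0.094, ERCC5 -0.43 and ATR -0.64, and in DoxyNaB vs. Doxy XRCC3 -0.10, ERCC1 -0.11 and ERCC5 -0.19. In DoxyNaB vs. Doxy, BRCA2 gave 0.12 with normexp, ATM -0.53 with quantile normalization, and XRCC3 -0.034 with the mean over its probes. BRCA2, NEIL3 and ERCC4 were not well above background on all arrays, which limits their changes.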
